A study of Oryza sativa with 8 samples.

Results

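Plants take up nitrogen largely as nitrate and ammonium. Nitrate reductase in the cytosol turns nitrate into nitrite, nitrite reductase in the plastid turns nitrite into ammonium, glutamine synthetase (GS) adds ammonium to glutamate to give glutamine, and glutamate synthase (GOGAT) uses glutamine to make glutamate. In green leaves the plastid enzymes GS2 and ferredoxin-dependent GOGAT (Fd-GOGAT) also recapture the ammonium that photorespiration releases, while the cytosolic GS1 enzymes, NADH-dependent GOGAT and asparagine synthetase are best known for moving and reusing nitrogen.

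These genes were followed in RNA sequencing of field-grown rice (Oryza sativa) leaves. The members were chosen by locus ID: 10 loci were listed, 9 of them have a row among the 36850 rows of the count table, and all 9 passed the filter on low counts. The listed NADH-GOGAT1 locus, Os01g0681900, has no row and is not analysed here. The plants were mEmBP-OE-4, 1 transgenic line with raised expression of the maize bZIP factor mEmBP-1a (4 libraries), and they were compared with wild type, WT (4 libraries). All libraries came from the second leaf from the top, cut at about 10:00 in the morning at the heading stage. The labels give no promoter for the transgene, and do not say whether the replicates are separate plants, so the spread behind each p-value is that of these 8 libraries and may be technical.

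Library totals were 38308580 to 50800180 counts in mEmBP-OE-4 and 35627524 to 47643781 counts in WT. Levels are given as CPM, the counts of a locus relative to a library size scaled by TMM (trimmed mean of M-values). Each edgeR adjusted p comes from the quasi-likelihood F test, is adjusted by Benjamini and Hochberg's method over all 20690 tested genes and was held against a threshold of 0.05. The 5 loci recalled for photosynthetic leaf summed to 43820 to 79460 CPM in mEmBP-OE-4 and 39330 to 49730 CPM in WT. Of these 5, 4 were higher and none lower, with a median log2 fold change of 1.55, where 20.1% of all tested genes were higher. With library totals alone 4 were also higher, where 8.47% of all tested genes were. None of the 5 was lower at an unadjusted p under 0.05, by DESeq2 or by limma-voom. Os11g0707000, which held most of the summed CPM, was not called (log2 fold change 0.30, edgeR adjusted p = 0.35). As a share of all counts its mean was lower, at 4.39% in mEmBP-OE-4 and 5.04% in WT, and the groups did not overlap. With library totals alone, however, none of the 5 was called lower. The 4 loci recalled for seed storage summed to 3.28 to 6.52 CPM in mEmBP-OE-4 and 3.05 to 4.69 CPM in WT. The shoot meristem locus had no count in WT and at most 0.539 CPM in mEmBP-OE-4. The 5 loci recalled for leaf senescence summed to 188 to 204 CPM in mEmBP-OE-4 and 192 to 203 CPM in WT, of which 1 was higher, 1 lower and 3 missed the threshold. With library totals alone none of them was higher and 3 were lower, where 43.1% of all tested genes were lower.

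Of the 9 nitrogen assimilation loci measured, 6 were higher in mEmBP-OE-4 and none was lower. Without WT replicate 1, which stood apart for GS1;2, 7 were higher, where 37.95% of all tested genes were called in either direction. The 6 were both nitrate reductases, GS2, GS1;1, GS1;2 and Fd-GOGAT. The nitrite reductase, asparagine synthetase AS1 and ammonium transporter AMT1;1 did not pass the test. Among all tested genes 39.2% changed, 20.1% higher and 19.1% lower. No member was lower at an unadjusted p under 0.05 either, nor by DESeq2 or limma-voom. The median log2 fold change was 1.07 over the 9 loci, and 0.00 over all tested genes. The groups did not overlap in 6 of the 9 loci, against 38.5% of all tested genes. With library totals alone as the scale, the median of all tested genes was -0.47 and the median of the 9 loci was 0.59. On that scale 5 of the 9 were called higher, where 8.47% of all tested genes were higher and 43.1% were lower. There 4 of the 9 did not overlap, but the share of all tested genes was not computed, so this count has no background to be read against.

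**Figure D1:**
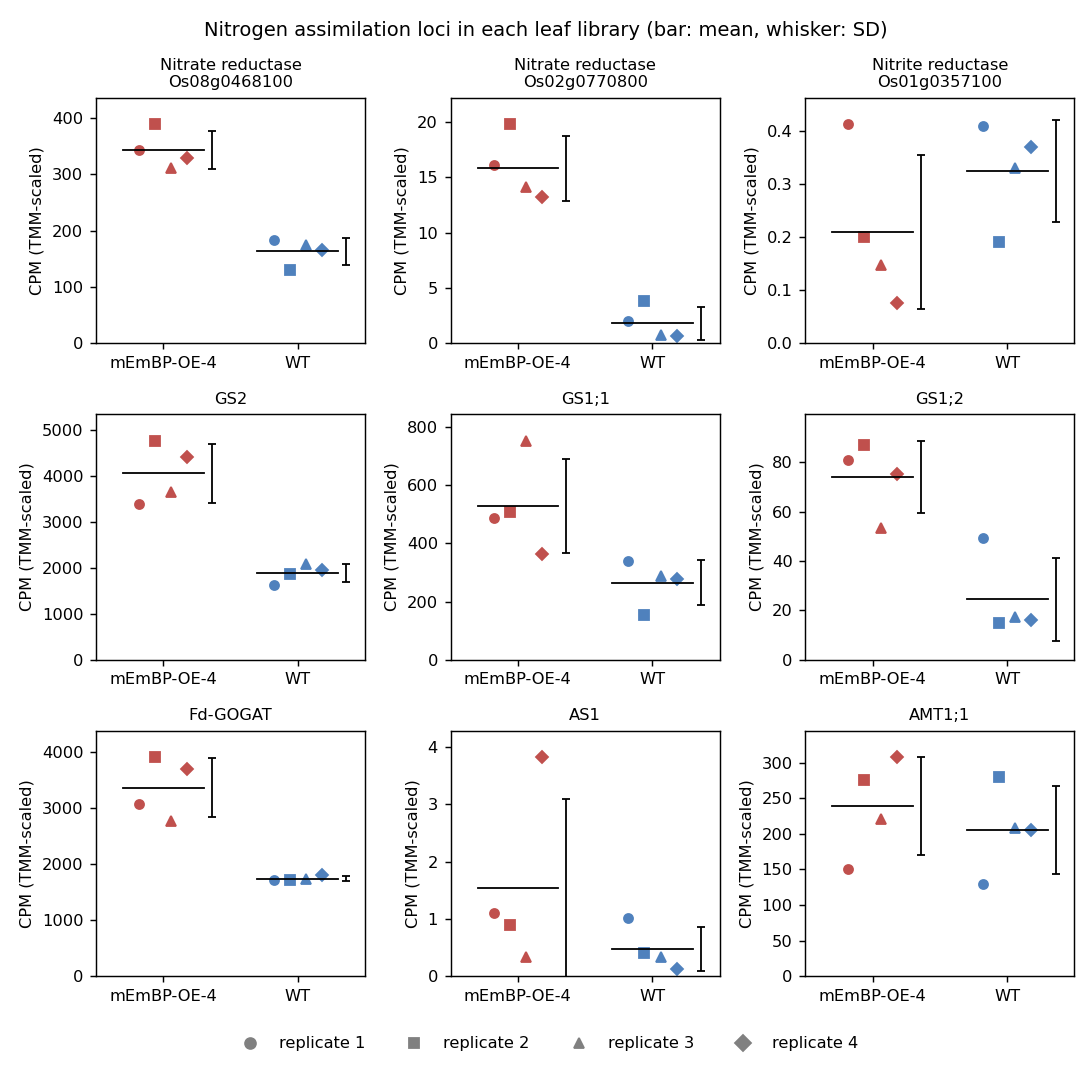
Level of each of the 9 measured loci in every library, in TMM-scaled CPM on a linear axis from 0, with mEmBP-OE-4 left of WT. Points are libraries, bars the group mean and whiskers the SD (n = 4), with the lower whisker of AS1 running past the axis. The groups do not overlap for both nitrate reductases, GS2, GS1;1, GS1;2 and Fd-GOGAT, and overlap for the nitrite reductase, AS1 and AMT1;1.

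Both nitrate reductase loci were higher in the overexpression line. Nitrate reductase makes the first committed step of nitrate assimilation. Os08g0468100, on chromosome 8 by its ID, had 343, 389, 312 and 330 CPM in mEmBP-OE-4 replicates 1 to 4, against 184, 130, 174 and 165 CPM in WT replicates 1 to 4. Every mEmBP-OE-4 library thus lay above every WT library. The means were 343 ± 33.1 CPM in mEmBP-OE-4, against 163 ± 23.4 CPM in WT (± SD, n = 4), with a log2 fold change of 1.07 (SE 0.14, edgeR adjusted p = 4.16e-04).

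The other nitrate reductase, Os02g0770800 on chromosome 2 by its ID, showed the largest fold change of the 6 loci that rose. It had 16.1, 19.8, 14.1 and 13.2 CPM in mEmBP-OE-4 replicates 1 to 4, against 2.03, 3.83, 0.736 and 0.652 CPM in WT replicates 1 to 4. The 4 mEmBP-OE-4 libraries lay close together, while WT replicates 1 and 2 were above WT replicates 3 and 4. In counts these were 515 to 625 in mEmBP-OE-4 and 29 to 181 in WT. As a log2 fold change this was 3.11 (SE 0.50, edgeR adjusted p = 0.00141), or 8.64-fold. Without WT replicate 2, the highest WT library, it was 3.75 (edgeR adjusted p = 5.02e-04).

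The nitrate reductases were also compared with each other. The ratio of Os08g0468100 to Os02g0770800 counts within a library, which does not depend on how libraries are scaled to each other, was 21.3, 19.7, 22.1 and 24.95 in mEmBP-OE-4 replicates 1 to 4, against 90.4, 34.0, 237 and 253 in WT replicates 1 to 4. All mEmBP-OE-4 ratios were below all WT ratios and were closer together. The mean log2 ratio was 4.45 ± 0.14 in mEmBP-OE-4, against 6.86 ± 1.37 in WT (± SD, n = 4), a difference of -2.41 (exact permutation p = 0.0286, two-sided, which is the lowest possible with 4 against 4, and 0.0857 adjusted over 6 ratios). The difference therefore did not pass after adjustment. Whether reads could be shared between these loci, or with a further reductase locus of nearby ID, is not known, because the counting method is not given in the sources used here.

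The nitrite reductase locus, Os01g0357100 on chromosome 1 by its ID, was close to the detection floor. The enzyme uses reduced ferredoxin to turn nitrite into ammonium. So few counts are low for a leaf nitrite reductase, and whether this locus is the one that serves the leaf, or is fully covered by the annotation behind the counts, was not checked. Its values are therefore those of the locus and not of leaf nitrite reduction. The locus had 16, 6, 6 and 3 counts in mEmBP-OE-4 replicates 1 to 4, against 25, 9, 13 and 17 counts in WT replicates 1 to 4. As levels, these were 0.0769 to 0.413 CPM in mEmBP-OE-4 and 0.190 to 0.410 CPM in WT, and the groups overlapped. The log2 fold change was -0.63 (SE 0.51, edgeR adjusted p = 0.346), so a change was not detectable at this depth. Without mEmBP-OE-4 replicate 1 it was -1.23 (edgeR adjusted p = 0.0732). Of the 2 loci on the list of further reductases, 1 had no count in any of the 8 libraries and the other missed the threshold. The ratio of both nitrate reductases to Os01g0357100 had a mean log2 value of 11.0 ± 0.97 in mEmBP-OE-4, against 9.04 ± 0.30 in WT (± SD over 4 libraries, two-sided exact permutation p = 0.0286, and 0.0857 adjusted over 6 ratios). The groups did not overlap, but the difference did not pass after adjustment. That ratio rests on the few counts of Os01g0357100 and carries the same doubt about the locus, as does the ratio of Os01g0357100 to GS2, whose mean log2 value was -14.48 ± 1.15 in mEmBP-OE-4 and -12.55 ± 0.55 in WT (two-sided exact permutation p = 0.0571, adjusted p = 0.114).

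GS2 and Fd-GOGAT, the plastid pair that completes ammonium assimilation in leaves, each stood about 1 log2 unit higher in mEmBP-OE-4. GS2, Os04g0659100 on chromosome 4 by its ID, had 3392, 4759, 3636 and 4398 CPM in mEmBP-OE-4 replicates 1 to 4, against 1620, 1866, 2083 and 1954 CPM in WT replicates 1 to 4. The lowest mEmBP-OE-4 library was well above the highest WT library. GS2 thus differed by a log2 fold change of 1.10 (SE 0.17, edgeR adjusted p = 9.90e-04). As a share of all counts, without TMM, GS2 took 0.339% ± 0.0121 in mEmBP-OE-4, against 0.221% ± 0.0106 in WT (± SD, n = 4), and the groups did not overlap on that scale either. Loci recalled for photosynthetic leaf moved the same way, with 4 of 5 higher, and their part in the GS2 and Fd-GOGAT results was not tested. The 4 higher loci are all on the same chromosome by their IDs. Whether reads could be shared between them is not known, so they may not be separate markers.

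Fd-GOGAT, Os07g0658400 on chromosome 7 by its ID, had 3071, 3905, 2772 and 3687 CPM in mEmBP-OE-4 replicates 1 to 4, against 1716, 1710, 1738 and 1803 CPM in WT replicates 1 to 4. WT libraries were nearly equal, with an SD of 42.2 CPM, and the mEmBP-OE-4 libraries were more spread, with an SD of 527 CPM. Replicates 2 and 4 were the 2 highest mEmBP-OE-4 libraries for both GS2 and Fd-GOGAT, and they also had the lowest TMM factors, 0.741 and 0.768, where replicates 1 and 3 had 1.01 and 0.891. The part of the TMM factor in this spread was not tested. Fd-GOGAT had a log2 fold change of 0.95 (SE 0.15, edgeR adjusted p = 0.00137). As a share of all counts, Fd-GOGAT took 0.282% ± 0.0266 in mEmBP-OE-4, against 0.206% ± 0.0120 in WT (± SD, n = 4).

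The balance between this pair was not shown to differ. The ratio of GS2 to Fd-GOGAT counts was 1.10, 1.22, 1.31 and 1.19 in mEmBP-OE-4 replicates 1 to 4, against 0.944, 1.09, 1.20 and 1.08 in WT replicates 1 to 4. Each mEmBP-OE-4 ratio was above that of the WT library with its number, but the groups overlapped. The mean log2 ratio differed by 0.16 (two-sided exact permutation p = 0.0857, adjusted p = 0.129).

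The cytosolic enzymes GS1;1 and GS1;2 also rose. In rice, GS1;1 is known for its part in growth and grain filling and GS1;2 for ammonium assimilation in roots. GS1;1, Os02g0735200 on chromosome 2 by its ID, had 489, 507, 752 and 364 CPM in mEmBP-OE-4 replicates 1 to 4, against 339, 156, 287 and 277 CPM in WT replicates 1 to 4. The lowest mEmBP-OE-4 library, replicate 4, was only a little above the highest WT library, replicate 1. Its log2 fold change was 0.996 (SE 0.27, edgeR adjusted p = 0.0171). With library totals alone it was 0.53 (edgeR adjusted p = 0.157), so this call depended on the scaling, and the groups overlapped on that scale.

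GS1;2, Os03g0223400 on chromosome 3 by its ID, had 80.99, 87.0, 53.6 and 75.2 CPM in mEmBP-OE-4 replicates 1 to 4, against 49.4, 14.7, 17.4 and 16.3 CPM in WT replicates 1 to 4. WT replicate 1 stood apart from the other WT libraries and just below the lowest mEmBP-OE-4 library. Over all libraries its log2 fold change was 1.60 (SE 0.38, edgeR adjusted p = 0.00947). Without WT replicate 1 it was 2.20 (SE 0.18, edgeR adjusted p = 7.42e-05), and with library totals alone it was 1.08 (edgeR adjusted p = 0.0485). The groups overlapped with library totals alone, where WT replicate 1 lay above mEmBP-OE-4 replicates 3 and 4.

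The locus recalled for phloem and vascular tissue, Os03g0170900, was higher in mEmBP-OE-4, as the GS1 loci were. It had 134, 113, 146 and 119 CPM in mEmBP-OE-4 replicates 1 to 4, against 101, 41.3, 49.6 and 45.9 CPM in WT replicates 1 to 4. WT replicate 1 was the highest WT library here as it was for GS1;1 and GS1;2, and the 4 mEmBP-OE-4 libraries were all above it. That library was also the highest of WT for Os08g0468100, the nitrite reductase and AS1, but not for Os02g0770800, GS2, Fd-GOGAT or AMT1;1. Within mEmBP-OE-4, replicate 3 was the highest library for Os03g0170900 and GS1;1, but the lowest for GS1;2. The log2 fold change of Os03g0170900 was 1.10 (SE 0.27, edgeR adjusted p = 0.0105), and the locus was not called with library totals alone. It is the only locus on that list, and its part in the GS1 result was not tested. In bulk leaf RNA a different number of cells of a type and a different amount of RNA per cell cannot be told apart.

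**Figure D2:**
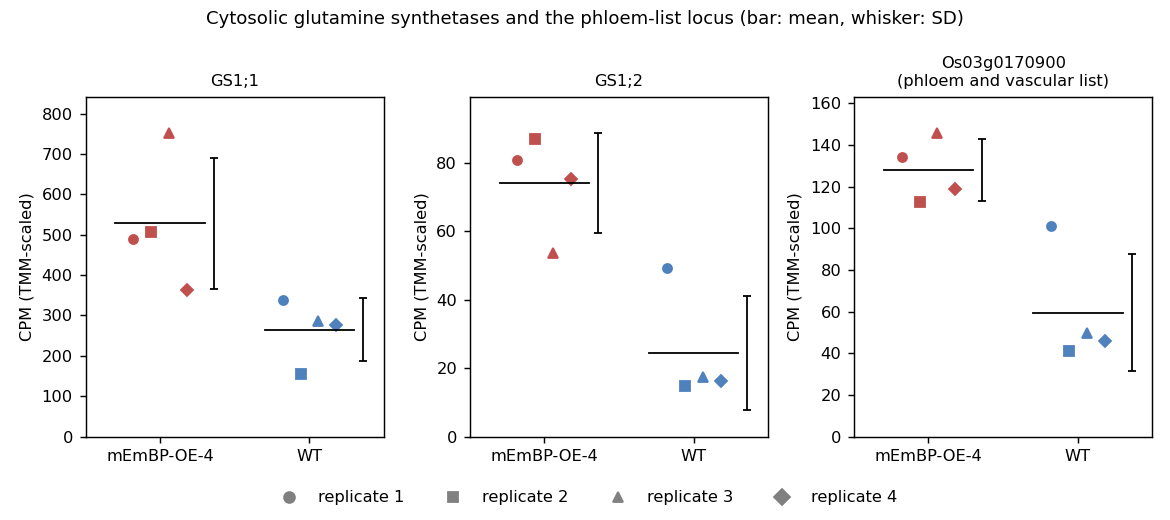
GS1;1, GS1;2 and the locus recalled for phloem and vascular tissue in every library, in TMM-scaled CPM from 0, with mEmBP-OE-4 left of WT. Points are libraries, bars the mean and whiskers the SD (n = 4). WT replicate 1, the circle, is the highest WT library in all 3 panels, at 339, 49.4 and 101 CPM.

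The balance between plastid and cytosolic GS counts varied more between libraries than between groups. The ratio of GS2 to the sum of GS1;1 and GS1;2 was 5.96, 8.01, 4.51 and 10.0 in mEmBP-OE-4 replicates 1 to 4, against 4.17, 10.95, 6.84 and 6.65 in WT replicates 1 to 4. The groups covered much the same range, with a difference in mean log2 ratio of 0.01 (SDs 0.50 in mEmBP-OE-4 and 0.57 in WT, two-sided exact permutation p = 1). The ratio of GS1;1 to GS1;2 was 6.03, 5.83, 14.05 and 4.84 in mEmBP-OE-4 replicates 1 to 4, against 6.87, 10.6, 16.5 and 17.0 in WT replicates 1 to 4. Each mEmBP-OE-4 ratio was below that of the WT library with its number, with a difference of -0.77 on the log2 scale (two-sided exact permutation p = 0.143, adjusted p = 0.171), which did not pass the test.

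**Figure D3:**
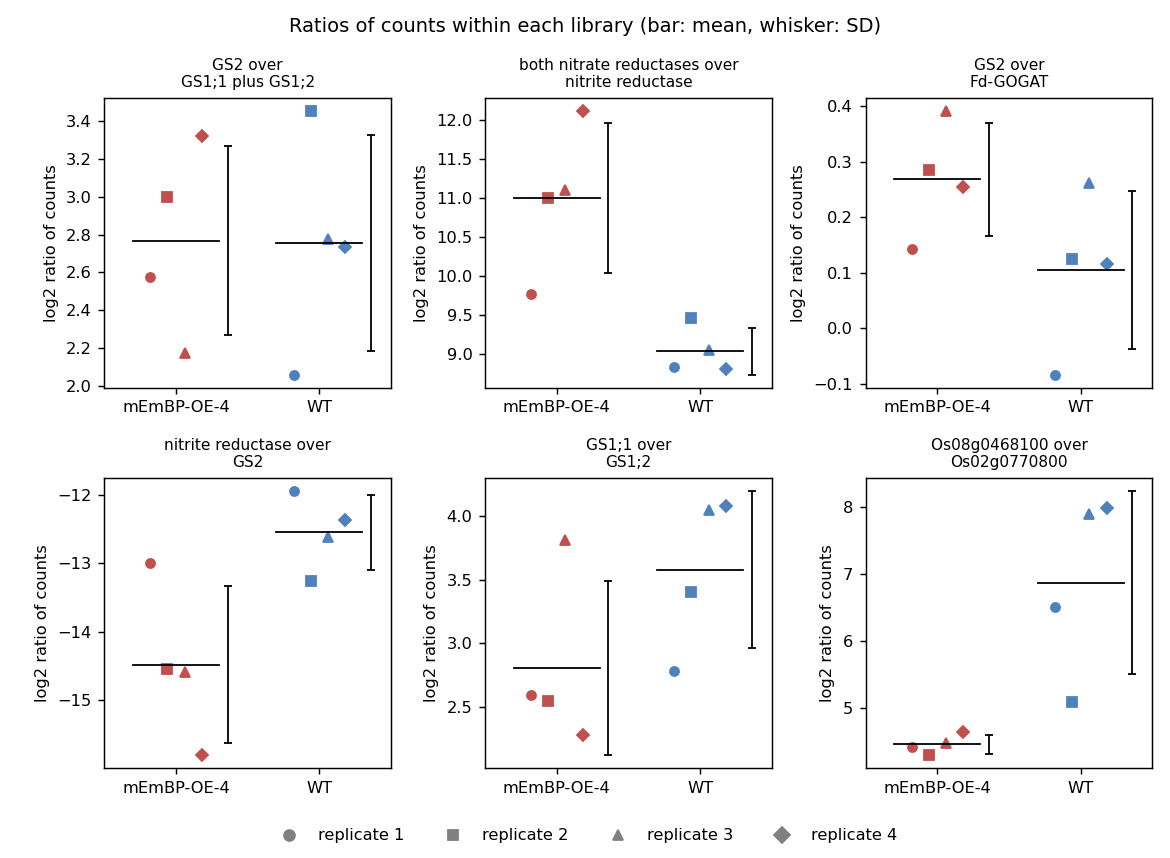
The 6 ratios of counts within each library on a log2 axis, with mEmBP-OE-4 left of WT. Points are libraries, bars the mean and whiskers the SD (n = 4), and each panel has its own axis range. The groups separate for the ratio of Os08g0468100 to Os02g0770800 and for both nitrate reductases over the nitrite reductase, and overlap in the other 4 panels.

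AS1 and AMT1;1 did not pass the test. AS1, Os03g0291500 on chromosome 3 by its ID, encodes an asparagine synthetase, an enzyme that makes the transport amino acid asparagine. It had 43, 27, 14 and 149 counts in mEmBP-OE-4 replicates 1 to 4, against 62, 19, 13 and 6 counts in WT replicates 1 to 4, which is 0.345 to 3.82 CPM in mEmBP-OE-4 and 0.130 to 1.02 CPM in WT. The groups overlapped, and mEmBP-OE-4 replicate 4 was far above the other 7 libraries. AS1 had a log2 fold change of 1.69 (SE 0.77, edgeR adjusted p = 0.108). Without mEmBP-OE-4 replicate 4 it was 0.70 (edgeR adjusted p = 0.431), and without WT replicate 1 it was 2.41 and passed the threshold (edgeR adjusted p = 0.0422).

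AMT1;1, Os04g0509600 on chromosome 4 by its ID, encodes an ammonium transporter of the plasma membrane. It had 150, 276, 221 and 308 CPM in mEmBP-OE-4 replicates 1 to 4, against 129, 280, 208 and 206 CPM in WT replicates 1 to 4. The groups covered nearly the same range, with replicate 1 the lowest library of each group. The log2 fold change was 0.22 (SE 0.27, edgeR adjusted p = 0.548), and -0.29 (edgeR adjusted p = 0.252) with library totals alone.

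**Figure D4:**
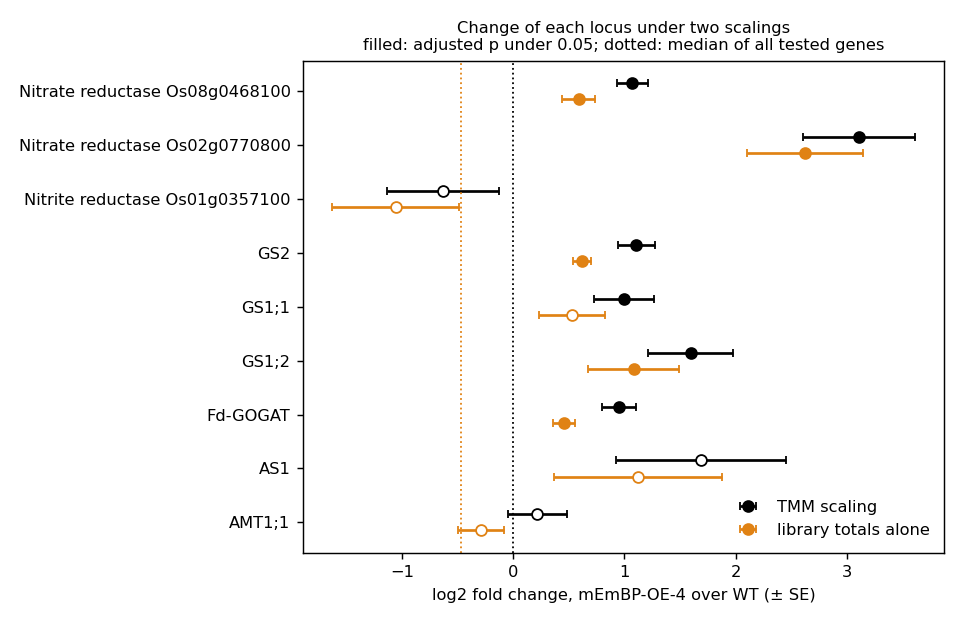
Log2 fold change of mEmBP-OE-4 over WT with its SE for the 9 measured loci, under TMM scaling (black) and with library totals alone (orange). Filled points have an adjusted p under 0.05, and dotted lines mark the median of all tested genes, 0.00 and -0.47. All 9 loci lie lower with library totals alone, where GS1;1 is no longer filled and AMT1;1 is below 0.

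Levels of different loci are not ranked against each other, since no transcript lengths for the annotation behind the counts were used here.

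The wider nitrogen pathway did not move in 1 direction. A further 25 loci were listed from recalled IDs, of which 17 could be tested, and 5 were higher, 5 lower and 7 missed the threshold. Their median log2 fold change was -0.10. In percent, 29.4% were higher and 29.4% lower, where 20.1% and 19.1% of all tested genes were. With library totals alone 3 were higher and 6 lower, where 8.47% of all tested genes were higher and 43.1% lower. Leaving out mEmBP-OE-4 replicate 3 or WT replicate 4 also left 3 higher. There 36.56% and 30.33% of all tested genes were called in either direction. Of 8 nitrate transport loci, 5 were tested and 3 rose, with none lower. Of these 3, 1 had overlapping groups. That locus was not called without mEmBP-OE-4 replicate 3 (edgeR adjusted p = 0.05015) or WT replicate 4 (edgeR adjusted p = 0.05383). Nor was it called with library totals alone (edgeR adjusted p = 0.1707). With the replicate number as a block 4 nitrate transport loci were higher. That block made 6 of the 17 loci higher and 5 lower, where 49.3% of all tested genes were called in either direction. Of 8 ammonium transporter loci, 5 were tested and 3 fell, with none higher. Of the 3, 2 had only 1 to 9 counts in each mEmBP-OE-4 library, and the other was not called without WT replicate 3 (edgeR adjusted p = 0.0561) or WT replicate 4 (edgeR adjusted p = 0.0559). In neither list did any locus move the other way at an unadjusted p under 0.05, by DESeq2 or by limma-voom. With library totals alone 2 nitrate transport loci were higher and 3 ammonium transporter loci lower. On that scale 8.47% of all tested genes were higher and 43.1% lower. Whether the lists differ from each other was not tested. The glutamate dehydrogenase list, meant for enzymes that can release or fix ammonium, had 1 of 3 loci higher, and the further assimilation enzymes had 1 higher and 1 lower of 2 tested. That higher assimilation locus had a log2 fold change of 0.32, and of -0.14 (edgeR adjusted p = 0.501) with library totals alone. It also missed the threshold with upper-quartile scaling factors (edgeR adjusted p = 0.0524), with other filters and with some single libraries left out.

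The 2 higher loci of lowest p were Os01g0704100, from the nitrate transport list, and Os03g0794500, from the glutamate dehydrogenase list. Os01g0704100, on chromosome 1 by its ID, had 12.6, 12.6, 8.44 and 13.5 CPM in mEmBP-OE-4 replicates 1 to 4, against 2.61, 1.08, 1.65 and 1.39 CPM in WT replicates 1 to 4. Its log2 fold change was 2.80 (SE 0.28, edgeR adjusted p = 1.27e-04). The groups were far apart, with the lowest mEmBP-OE-4 library at 8.44 CPM and the highest WT library at 2.61 CPM. Os03g0794500, on chromosome 3 by its ID, had 27.0, 23.4, 14.96 and 23.5 CPM in mEmBP-OE-4 replicates 1 to 4, against 6.57, 3.68, 4.26 and 3.46 CPM in WT replicates 1 to 4, with a log2 fold change of 2.30 (SE 0.25, edgeR adjusted p = 1.82e-04). WT replicate 1 was the highest WT library for both loci, as for the GS1 loci.

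The 2 lower loci of lowest p were Os05g0133100, listed as the PII protein, a sensor of nitrogen and carbon status in plastids, and Os05g0555600, listed among the further assimilation enzymes. Os05g0133100, on chromosome 5 by its ID, had 23.4, 20.5, 25.7 and 20.8 CPM in mEmBP-OE-4 replicates 1 to 4, against 36.1, 42.4, 44.8 and 38.7 CPM in WT replicates 1 to 4. The groups were separate, with a log2 fold change of -0.84 (SE 0.11, edgeR adjusted p = 5.37e-04). Os05g0555600, on chromosome 5 by its ID, had 2, 9, 3 and 13 counts in mEmBP-OE-4 replicates 1 to 4, against 88, 112, 75 and 116 counts in WT replicates 1 to 4. Its log2 fold change was -3.45 (SE 0.52, edgeR adjusted p = 0.00103), the farthest below 0 of the 17 tested loci, and few counts in mEmBP-OE-4 make its size imprecise.

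**Figure D5:**
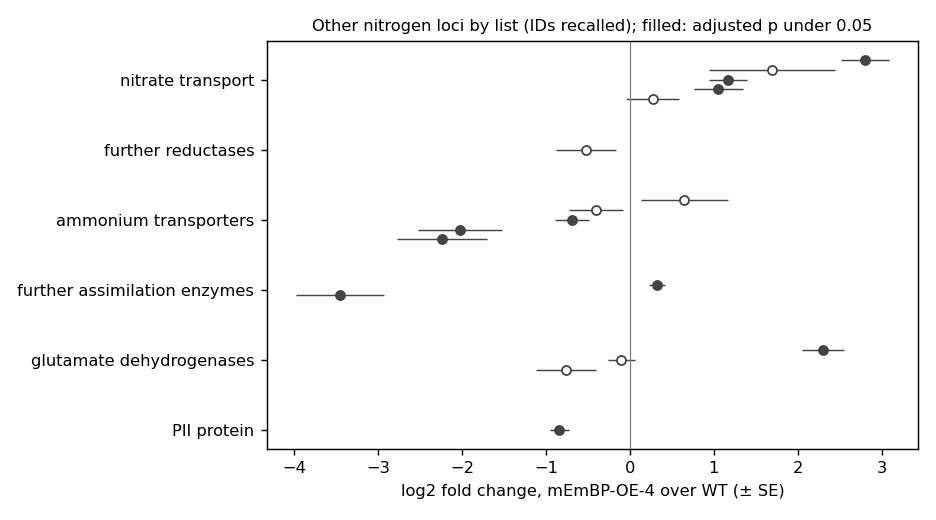
Log2 fold change of mEmBP-OE-4 over WT with its SE for the 17 tested loci of the wider nitrogen lists, grouped by list. Filled points have an adjusted p under 0.05. The 3 filled nitrate transport points lie right of 0, the 3 filled ammonium transporter points left of 0, and the point farthest to the left, at -3.45, is Os05g0555600.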

How the data were processed

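The authors deposited 1 table of raw counts, whole numbers per gene for each of 8 libraries. Tools listed in the submitters' processing notes are STAR 2.5.3a, Trim Galore, FastQC and DESeq2, and the build is IRGSP-1.0. How reads were counted, on which strand and with which annotation is not given in the sources used here, so paralogs, overlapping and antisense genes carry an unknown assignment error.

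Libraries were grouped by title. Names of the members come from a list of locus IDs, since the table pairs no ID with a name. A RefSeq gene table for assembly ASM3414082v1 matched 1 row ID. It holds 5 of the member names, each with an entry on the chromosome that the ID names. The name GS2 also has an entry on chromosome 2, which is not that of its ID. The further lists rest on recalled IDs. Members and lists were chosen with earlier results of these data known. All members are described, and of the further lists up to 2 higher and 2 lower loci of lowest p. Rows that are no Os locus ID (1183, at most 0.0393% of a library) were kept.

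Genes were kept by filterByExpr at a minimum count of 10 and a minimum total of 15, scaled by TMM and tested with edgeR 4.0.16 in R 4.3.3 without covariates. SE is the absolute log2 fold change over the square root of F. Ratios were compared by exact permutation over all 70 ways to choose 4 of 8 libraries. Of 7 planned ratios, the one with NADH-GOGAT1 could not be computed. The fit was tested on simulated data. Alternatives were DESeq2 1.42.0, limma-voom (limma 3.58.1), other scaling factors, other filters, a replicate block and leaving out libraries.

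No replicate pair agreed within sampling noise (6.20 to 110 for chi-square over its degrees of freedom). Same-numbered libraries deviated together from their group means at correlations of 0.641, 0.347, 0.189 and 0.104, each over 0.1. For mEmBP-OE-4 replicate 4 the highest correlation was with a WT library of another number. The numbers were used as pairs only in the replicate block and in the exact p of same-numbered pairs. The main fit and the main ratio tests did not use this pairing. This pairing comes from the data and not from the labels, and another matching gave a higher mean correlation (0.347 against 0.320).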

Additional observations from a re-analysis of the deposited data

Results flagged for a closer look

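Among 40 groups of 4 values screened, 2 held a library far from the other 3, where chance gives about 1 in 20 groups. Both were WT replicate 1. GS1;2 (Os03g0223400) had 49.4 CPM in that library and 14.7 to 17.4 CPM in the other WT libraries. Os03g0170900, the locus recalled for phloem and vascular tissue, had 101 CPM there and 41.3 to 49.6 CPM in the other WT libraries. Removing replicate 1 of both groups, which was decided once the values were known, gave 7 members called higher, AS1 being the added one. Only 8 members were tested there, since the nitrite reductase no longer passed the filter, and 41.74% of all tested genes were called in either direction.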

How the results depend on the processing

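Under the other tools, scaling factors, filters and left-out libraries, 5 to 7 members were called higher and none lower. Of 150 values of single members under these settings, 146 kept their direction and side of the threshold. The others were GS1;1, not called with library totals alone, AS1, called without WT replicate 1 and without both replicate 1 libraries, and AMT1;1, whose log2 fold change of -0.29 with library totals alone had the other sign. The all-gene calls, 4155 higher and 3954 lower, became 1752 and 8912 with library totals alone, and 2602 and 2618 with at least 5 CPM in 4 libraries, where 12157 genes were tested. Of the other pathway loci, 3 were higher with library totals alone, and 2 lower with the 5 CPM filter. That filter removed Os05g0555600 and the 2 lower ammonium transporter loci with few counts, so these were not tested there. The lower loci that it kept were still called. With 1 library left out, 3 to 6 were higher, with 3 of them without mEmBP-OE-4 replicate 3 or WT replicate 4. Over those fits 30.33% to 40.26% of all tested genes were called in either direction. The cause of the changes with library totals alone or with 1 library left out was not tested.

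With the replicate block no call of a member changed, and 1 more of the other pathway loci was called, on the nitrate transport list. The same-numbered pairs gave an exact p of 0.125, the smallest that 4 pairs allow, for the ratio of both nitrate reductases to the nitrite reductase (difference 1.96) and of Os08g0468100 to Os02g0770800 (-2.41). With 1 library left out, the difference in mean log2 ratio was 1.59 to 2.38 for the nitrate reductases over the nitrite reductase, -3.00 to -2.04 for Os08g0468100 over Os02g0770800 (exact p = 0.0286 to 0.0571 for each of these), -2.43 to -1.49 for the nitrite reductase over GS2 (exact p = 0.0286 to 0.0857, the lowest without mEmBP-OE-4 replicate 1) and -0.22 to 0.25 for GS2 over the GS1 sum, which thus had either sign. Depth limits the nitrite reductase, AS1, Os05g0555600 and 2 of the lower ammonium transporter loci, each with under 20 counts in some libraries.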
